A study of Homo sapiens with 6 samples.

Results

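The 10 genes described here make, cut, link or bind hyaluronan: the synthases HAS2 and HAS3, the link proteins HAPLN1 and HAPLN3, the proteoglycan VCAN, the receptors CD44 and HMMR, and the breakdown genes CEMIP2, HYAL2 and HYAL3. They are a named list, found by gene symbol among the 58219 gene identifiers of each file. The list was chosen by function with the differences in reverse-strand counts between the shYES1 and shNT libraries already known, so every difference of the 10 genes is a description and carries no p-value. Of the 10 genes, 8 passed the filter on low counts and were among the 14239 genes tested, and HAPLN3 and HAS3 did not pass.

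RNA was measured by stranded poly(A) sequencing in the established cell line SNU-387, from a human hepatocellular carcinoma. All 6 libraries come from cells with a stably expressed short hairpin RNA: 3 carry a non-target hairpin (shNT) and 3 carry a hairpin against YES1 (shYES1), a tyrosine kinase of the SRC family. Separate cultures and clonal origin are not stated in the labels, nor is how many hairpins were used or their sequence. Gene reads per library ranged from 11290889 to 18944148.

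Hyaluronan is a long unsulfated sugar chain that HAS enzymes build at the plasma membrane from UDP-glucuronic acid and UDP-N-acetylglucosamine and push out of the cell. Link proteins such as HAPLN1 lock the chain to chondroitin sulfate proteoglycans such as versican, the product of VCAN, which gives a hydrated matrix. CD44 is the main cell surface receptor for the chain, and hyaluronidases cut it. In liver the chain is made mainly by stellate cells, accumulates in fibrosis and is cleared by sinusoidal endothelial cells.

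YES1 was lower in every shYES1 library, at 42.9, 43.3 and 46.0 CPM (read counts set to a common library size, scaled by the trimmed mean of M-values, TMM) against 178, 181 and 180 in shNT. This is 4.06-fold and matches the labels. Of the liver markers, ALB, APOA1, APOB and FGB had at most 4 reads each over all 6 libraries and TTR and HNF4A had 0, so these hepatocyte transcripts were at or near absence. AFP had 34 reads over all 6 libraries, and SERPINA1 was measured at 19.2 CPM in shNT and 16.9 in shYES1. The 5 mesenchymal markers, FN1 the most abundant, summed to 27100 to 29787 CPM in shNT and 18322 to 18447 in shYES1, and the 5 epithelial markers to 764 to 774 and 1070 to 1091. The members of these lists did not move together. FN1 had means of 26242 and 15914 CPM and VIM of 44.5 and 23.2, while CDH2 had 542 and 707 and COL1A1 1481 and 1670. KRT8 had 494 and 721 CPM and KRT18 274 and 357, while EPCAM had 1.43 and 0.979. The 4 leukocyte markers summed to at most 1.13 CPM in any library, and the 3 endothelial markers to 24.8 to 25.6 in shNT and 23.0 to 23.4 in shYES1. Of the endothelial markers, PECAM1 had means of 13.9 and 11.2 CPM and CDH5 of 11.1 and 10.6, while VWF had 0.351 and 1.44. The part of these shifts in the differences below was not tested. In such bulk samples, fewer cells of a type and less RNA per cell cannot be told apart.

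Of the 8 tested hyaluronan genes, HAPLN1, CEMIP2, CD44 and HMMR were called lower in shYES1, HYAL2 and VCAN were called higher, and HAS2 and HYAL3 were not called. A gene is called at an adjusted p under 0.05 in edgeR's quasi-likelihood test over all 14239 genes. In that test 65.3% of all genes were called, 32.8% lower and 32.5% higher, so a count of 6 of 8 is read against a background where most genes differ. The balance of directions depends on the scaling: 5799 genes were higher and 3762 lower with library size only, and 3580 higher and 5671 lower with scaling on the genes whose 3′ UTR lacks CCTTTC, so that 39.3% and 61.3% of the calls were lower, against 50.3% as reported. The median log2 fold change of the 8 genes was -0.56, and that of all genes tested was -0.0047. The median of all genes was 0.09 with library size only and -0.09 with the CCTTTC scaling, a shift shared by the genes. CCTTTC itself came from an earlier analysis of these same data. The median called gene of the whole table differed by 1.35-fold.

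**Figure D1:**
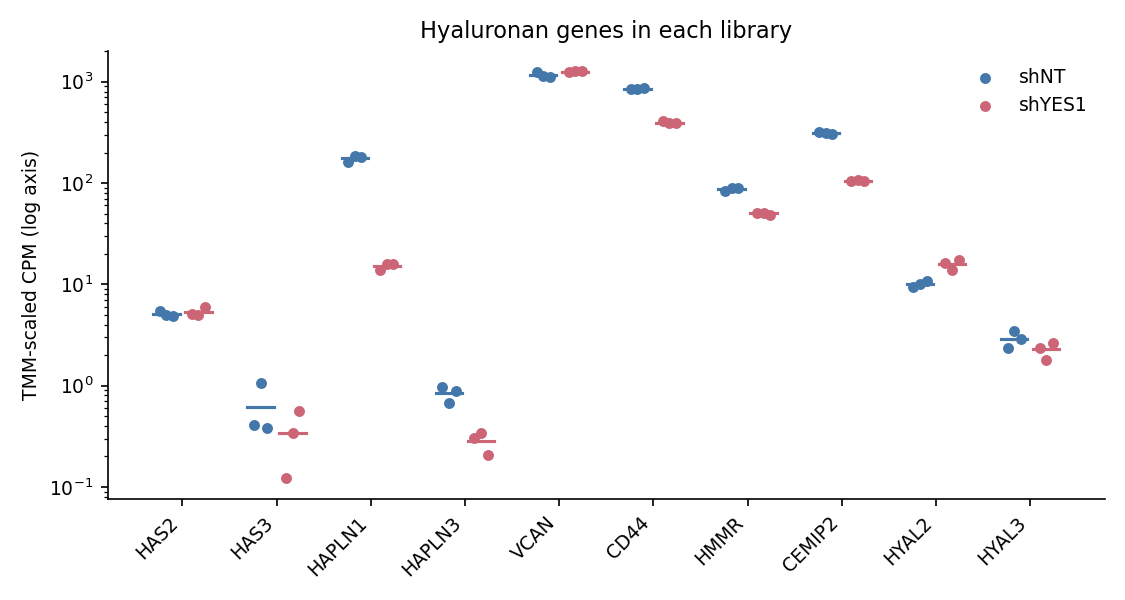
TMM-scaled CPM on a log axis for each of the 10 genes, ordered by role; each point is 1 library and each bar is the mean of 3. HAPLN1 has means of 176 and 15.2 CPM, while VCAN lies between 1126 and 1273 CPM and HAS2 between 4.88 and 5.98 CPM in all 6 libraries.

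The synthases were at low levels. HAS2, the synthase most often dominant in mesenchymal cells, was measured at 5.41, 4.99 and 4.88 CPM in shNT and at 5.05, 4.96 and 5.98 CPM in shYES1. The groups overlapped, and the mean was 5.10 ± 0.281 (SD, n = 3) in shNT and 5.33 ± 0.562 in shYES1. The log2 fold change (shYES1 minus shNT) was 0.09 with a standard error (SE) of 0.134, and it turned to -0.02 without shYES1 replicate 3, so no direction is given. These values rest on 58 to 117 reads per library. HAS2 lies on the minus strand at chr8:121612116-121641390 (GRCh38).

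HAS3 (chr16:69105564-69118719, plus strand) had 5, 14 and 6 reads in shNT and 2, 4 and 11 in shYES1. Its levels of 0.404, 1.06 and 0.380 CPM in shNT and 0.122, 0.342 and 0.562 in shYES1 overlap, and a difference was not detectable at this depth. The locus is covered from the other strand as well. Over the exons of HAS3, 90.8% to 97.7% of the stranded reads lay opposite to the gene, where CHTF8, a cohesion factor gene, is annotated. CHTF8 fell, with 71.0 ± 2.72 CPM in shNT and 25.6 ± 1.12 in shYES1 (edgeR adjusted p = 8.37e-29, log2 fold change -1.47, SE 0.0508). In an unstranded count the reads of HAS3 and CHTF8 could not be told apart.

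The link protein gene HAPLN1 had the largest fold change of the 8 tested. It was measured at 162, 184 and 182 CPM in shNT and at 13.9, 15.7 and 15.8 CPM in shYES1. The groups lie far apart, with means of 176 ± 12.02 and 15.2 ± 1.07 (SD, n = 3 each). The log2 fold change was -3.54 (SE 0.0538), which is 11.6-fold lower, on 2009 to 2877 reads in shNT and 184 to 310 in shYES1. HAPLN1 spans chr5:83637805-83721613 on the minus strand, and no other annotated gene overlaps its exons. HAPLN3, the link protein of wider tissue distribution, was near the limit of detection, with 12, 9 and 14 reads in shNT and 5, 4 and 4 in shYES1. All 3 shYES1 libraries were below all 3 shNT libraries, at 0.284 ± 0.0712 against 0.846 ± 0.149 CPM, but the gene (chr15:88877288-88895626, minus strand) did not pass the filter and is not among the genes tested. It entered the fit in 6 alternatives, 1 with no low-count filter and 5 that leave out a library in turn (any but shNT replicate 3). There its log2 fold change was -1.73 to -1.38, and it was called lower in all 6, on at most 14 reads per library. In the 5 that leave out a library, it passed the filter through shNT, where it is higher. All 6 reuse the same libraries, so these calls are a description and support nothing.

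VCAN, the proteoglycan that HAPLN1 binds, was the most abundant of the 10 in CPM. It was measured at 1240, 1142 and 1126 CPM in shNT and at 1246, 1263 and 1273 CPM in shYES1. The groups did not overlap, although shNT replicate 1 and shYES1 replicate 1 differed by little. The mean was 1169 ± 61.6 in shNT and 1261 ± 13.7 in shYES1, a log2 fold change of 0.11 (SE 0.0266). This small difference lost its call, at a log2 fold change of 0.02, when scaling used the genes whose 3′ UTR lacks the sequence CCTTTC. That scaling moved the median of all genes tested from -0.0047 to -0.09, a shift shared by the genes, so the lost call is no test of VCAN. The value of 0.11 rests on its own scaling in the same way. Over 15 alternatives it ranged from 0.02 to 0.21, so the size and the call of this difference depend on the scaling used. VCAN spans chr5:83471465-83582303 on the plus strand. Gene counts do not separate the versican splice forms, which differ in their chondroitin sulfate regions.

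Set per exon length, HAPLN1 stood at 0.279, 0.343 and 0.345 of VCAN in the 3 shNT libraries and at 0.0239, 0.0266 and 0.0265 in the 3 shYES1 libraries. In the same unit, VCAN stood at 3.13 ± 0.391 times HAPLN1 in shNT and 39.1 ± 2.45 times in shYES1. The length is that of all annotated exons of a gene merged, not of the forms expressed, so these are not ratios of transcripts. VCAN differed 1.08-fold between the groups and HAPLN1 11.6-fold.

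The receptor CD44 (chr11:35138870-35232402, plus strand) was measured at 838, 857 and 870 CPM in shNT and at 407, 389 and 387 CPM in shYES1. Both groups were tight, at 855 ± 15.9 and 395 ± 10.9, and did not overlap. The log2 fold change was -1.12 (SE 0.0255), or 2.17-fold lower. CD44 standard and variant forms, which differ by alternative exons in the stem of the protein, are summed in these counts. The antisense gene CD44-AS1 had 7 to 23 reads per library and was at 1.27 ± 0.409 CPM in shNT and 0.757 ± 0.305 in shYES1 (edgeR adjusted p = 0.0339, log2 fold change -0.77, SE 0.323), with reads that overlap between the groups. Opposite-strand reads over CD44 were 0.507% to 0.977% per library, below the median of 1.44% over all genes tested. Whether CD44-AS1 counts include stray reads of CD44 was not tested.

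HMMR encodes a receptor for hyaluronan-mediated motility that is also a spindle protein of dividing cells. It was measured at 84.2, 88.6 and 88.6 CPM in shNT and at 51.1, 51.0 and 48.8 CPM in shYES1. The groups did not overlap, with means of 87.1 ± 2.55 and 50.3 ± 1.27, a log2 fold change of -0.80 (SE 0.0414) and a 1.74-fold lower level. HMMR spans chr5:163460203-163491945 on the plus strand.

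Breakdown is served by unrelated protein families. CEMIP2, also called TMEM2, is a cell surface protein reported to cut hyaluronan or to bind it. CEMIP2 (chr9:71683366-71816690, minus strand) was measured at 320, 311 and 306 CPM in shNT and at 106, 108 and 104 CPM in shYES1. The means of 312 ± 6.96 and 106 ± 2.29 differ by a log2 fold change of -1.56 (SE 0.0303), or 2.96-fold lower in shYES1, and the groups did not overlap.

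HYAL2, a lipid-anchored hyaluronidase that acts at the cell surface, went the other way. It was measured at 9.37, 10.1 and 10.9 CPM in shNT and at 16.1, 13.9 and 17.3 CPM in shYES1. The lowest shYES1 library lay above the highest shNT library, and the means of 10.1 ± 0.764 and 15.7 ± 1.73 gave a log2 fold change of 0.65 (SE 0.0912), 1.57-fold higher. HYAL2 (chr3:50317790-50322906, minus strand) shares exon sequence with TUSC2 on the same strand, so its count is uncertain where the annotations overlap. TUSC2 fell in the same libraries (log2 fold change -0.48, SE 0.0912, edgeR adjusted p = 1.04e-05).

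HYAL3, a hyaluronidase relative of uncertain enzyme activity, was low. It was measured at 2.34, 3.48 and 2.91 CPM in shNT and at 2.37, 1.796 and 2.66 CPM in shYES1. The groups overlapped, and the log2 fold change was -0.32 with an SE of 0.195 on 21 to 52 reads per library. HYAL3 (chr3:50292831-50299468, minus strand) overlaps IFRD2 and NAA80 on the same strand, so it too may lose reads to ambiguity.

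Counted over the 10 genes, 5 were lower in all 3 shYES1 libraries than in all 3 shNT libraries (HAPLN1, HAPLN3, CD44, HMMR, CEMIP2), 2 were higher in all (VCAN, HYAL2) and 3 overlapped (HAS2, HAS3, HYAL3). HAPLN3 and HAS3 are not among the genes tested. Of the 8 that are, 4 were lower and 2 higher without overlap. Over all genes tested, 67.9% did not overlap between the groups, 34% lower and 33.9% higher.

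**Figure D2:**
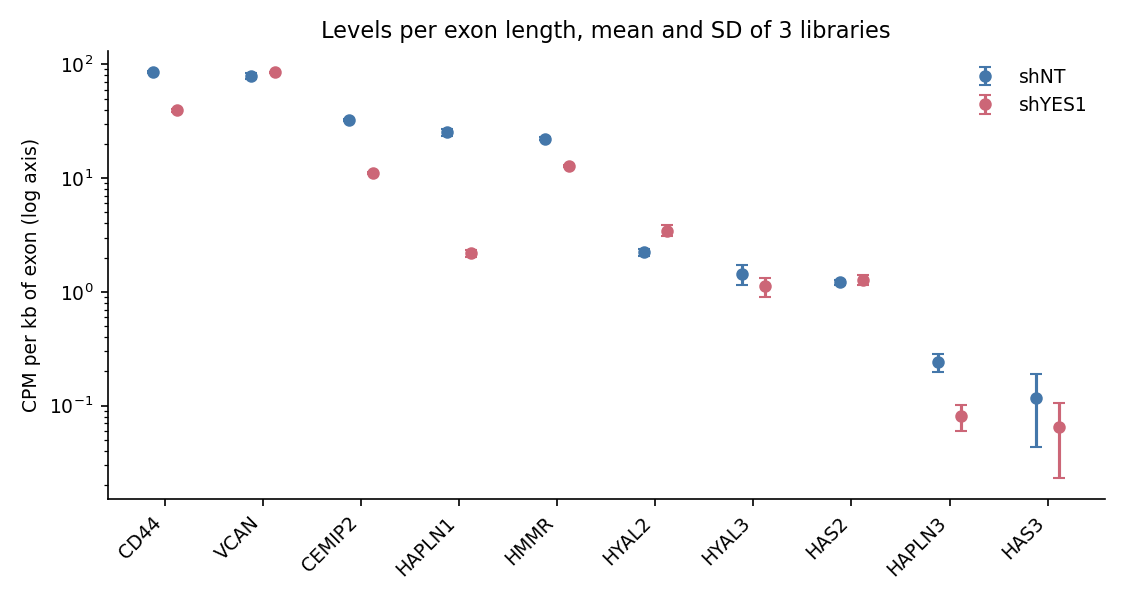
CPM per kb of exon on a log axis, mean and SD of 3 libraries per group, genes ordered by their shNT level. CD44 leads in shNT and VCAN in shYES1, and HAPLN1 moves from the fourth to the sixth place.

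Levels were compared between genes per exon length. The length merges the exons of all annotated transcripts, so the order of genes is approximate where the expressed forms are shorter. In shNT, CD44 stood at 85.5 ± 1.59 CPM per kb and VCAN at 78.8 ± 4.16, a gap somewhat wider than either SD. CEMIP2 followed at 32.5 ± 0.723, HAPLN1 at 25.3 ± 1.73 and HMMR at 22.1 ± 0.647. A wide step led to HYAL2 at 2.22 ± 0.168, HYAL3 at 1.44 ± 0.280 and HAS2 at 1.22 ± 0.0671, and the last pair did not differ beyond their spread. HAPLN3 at 0.240 ± 0.0422 and HAS3 at 0.116 ± 0.0729 came last.

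In shYES1 the order per kb was VCAN at 85.0 ± 0.924, CD44 at 39.4 ± 1.09, HMMR at 12.8 ± 0.322 and CEMIP2 at 11.0 ± 0.238. HYAL2 at 3.46 ± 0.380 now stood above HAPLN1 at 2.18 ± 0.154. HAS2 at 1.27 ± 0.134 and HYAL3 at 1.12 ± 0.216 were within their spread of each other, as were HAPLN3 at 0.0805 ± 0.0202 and HAS3 at 0.0647 ± 0.0416. The balance of the breakdown genes moved as well: CEMIP2 stood at 14.7 ± 1.43 times HYAL2 per kb in shNT and at 3.21 ± 0.435 times in shYES1, and HYAL2 at 1.58 ± 0.259 and 3.12 ± 0.285 times HYAL3.

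In the shNT order, the 5 genes with the highest levels per kb were the 4 genes called lower together with VCAN. In the shYES1 order HYAL2 took the place of HAPLN1 among the top 5. The relative spread (SD over mean) of CPM was widest for HAS3, at 62.7% in shNT and 64.4% in shYES1, followed by HAPLN3 at 17.6% and 25.1% and HYAL3 at 19.5% and 19.3%.

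The other strand was read as a check on overlapping transcripts. Apart from HAS3, the largest opposite-strand share was that of HAS2, 2.94% to 11.8%, where HAS2-AS1 is annotated. HAS2-AS1 itself was at 1.13 ± 0.193 CPM in shNT and 0.871 ± 0.268 in shYES1 (edgeR adjusted p = 0.344). In the other 8 genes the share stayed at or below 2.13% in every library, beside a median of 1.44% over all genes tested. VCAN-AS1 had 4 to 9 reads and HMMR-AS1 at most 3.

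The genes form 2 close pairs on the chromosomes, and within each pair the fold changes differed. VCAN and HAPLN1 face each other on chromosome 5, with 55501 bases between their ends, yet HAPLN1 was 11.6-fold lower while VCAN changed little (log2 fold change 0.11). The other tested genes with a start within 500 kb were TMEM167A, a Golgi membrane protein gene (199 ± 3.19 to 156 ± 2.06 CPM, log2 fold change -0.36), the DNA repair gene XRCC4 (21.5 ± 1.71 to 18.4 ± 1.05 CPM, log2 fold change -0.22) and the noncoding gene ENSG00000271862 (log2 fold change 0.03, SE 0.235). TMEM167A and XRCC4 fell, with edgeR adjusted p = 9.72e-15 and 0.0063, by far less than HAPLN1.

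HYAL3 and HYAL2 lie on the same strand of chromosome 3 with 18321 bases between them, in a gene-dense stretch. Of the other 23 tested genes there, 7 rose, 8 fell and 8 were not called, near the shares over all genes tested, 32.5% higher and 32.8% lower. C3orf18 rose by a log2 fold change of 0.61 (SE 0.103) and MAPKAPK3, a stress kinase gene, by 0.60 (SE 0.0709), both close to the 0.65 of HYAL2. RASSF1, a tumour suppressor gene, had a log2 fold change of -0.50 (SE 0.0952), and TRAIP, a ubiquitin ligase gene of DNA replication, of -1.22 (SE 0.147). NAA80, the actin acetyltransferase gene that overlaps HYAL3, was not called at 0.05 (SE 0.133).

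**Figure D3:**
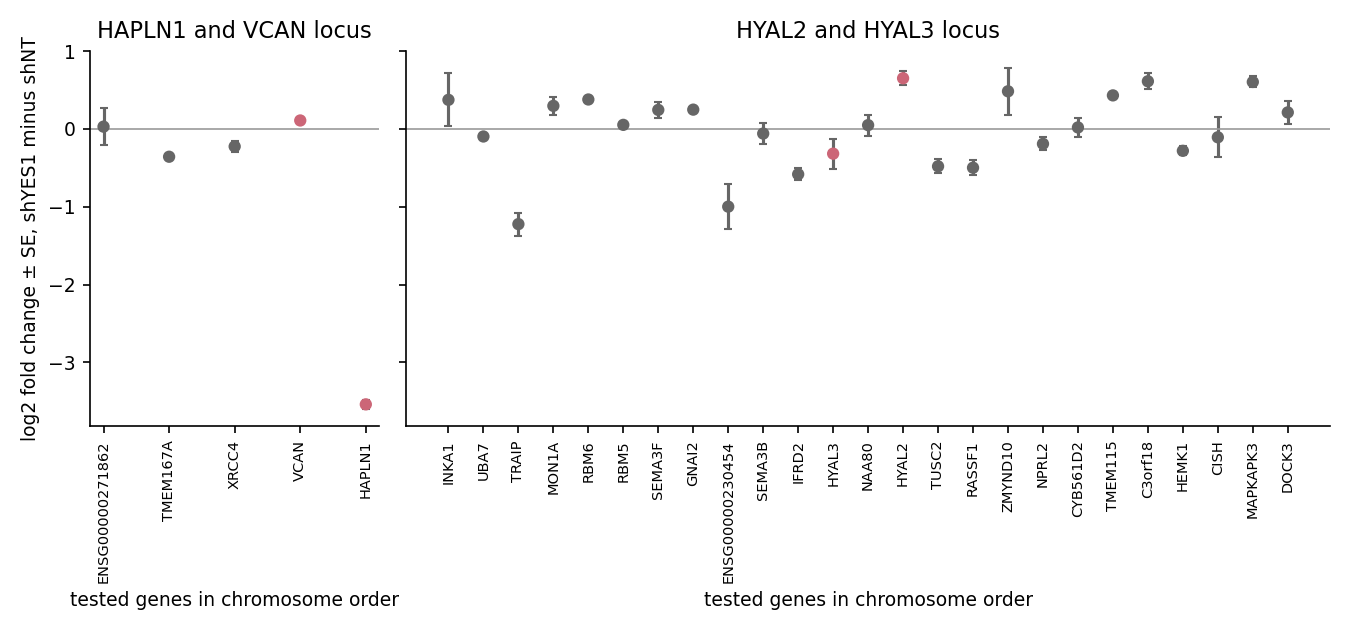
Log2 fold change with SE for every tested gene whose start lies within 500 kb of the HAPLN1 and VCAN pair (left) and the HYAL2 and HYAL3 pair (right), in chromosome order; red points are the hyaluronan genes. HAPLN1 at -3.54 lies below every other gene of both loci, and HYAL2 at 0.65 is the highest of its locus.

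The 3′ ends of the genes are shown because an earlier analysis of these same data singled out the 6-base sequence CCTTTC in 3′ UTRs; for that reason its match here is a description that supports nothing. Copies were counted on the sense strand of the longest annotated 3′ UTR of protein-coding transcripts. HAPLN1 holds 4 copies in 3691 bases and CD44 holds 5 in 3069. CEMIP2 and VCAN hold 2 each, in 1831 and 1869 bases, HMMR, HAS2 and HAS3 hold 1 each, and HYAL2, HYAL3 and HAPLN3 hold 0, in 339, 415 and 682 bases. The copies of the 4 genes with 2 or more are printed 5′ to 3′ on the gene's strand from GRCh38, the 6 bases in capitals and the coordinates those of the capitals.
HAPLN1, chr5:83641219-83641224, minus strand: aacaaagtatCCTTTCatgaacgggg
HAPLN1, chr5:83640995-83641000, minus strand: acaatctataCCTTTCtaaaagttaa
HAPLN1, chr5:83640932-83640937, minus strand: taaaatcctgCCTTTCtgaccaaaaa
HAPLN1, chr5:83639832-83639837, minus strand: aaaagtaggtCCTTTCtttcatcaaa
CD44, chr11:35229591-35229596, plus strand: cacttggaggCCTTTCatccctcggg
CD44, chr11:35229661-35229666, plus strand: tgatcgccaaCCTTTCccccaccagc
CD44, chr11:35230859-35230864, plus strand: aatggtatctCCTTTCtgaggctcct
CD44, chr11:35231117-35231122, plus strand: tgaaaaacttCCTTTCtcttctgtga
CD44, chr11:35231982-35231987, plus strand: tctagcagaaCCTTTCcaaaagtttt
CEMIP2, chr9:71684032-71684037, minus strand: gcccagcttcCCTTTCcacagggtgc
CEMIP2, chr9:71683698-71683703, minus strand: taccgataaaCCTTTCtaattgtaag
VCAN, chr5:83580493-83580498, plus strand: acttcctgtgCCTTTCctatcacctc
VCAN, chr5:83582139-83582144, plus strand: ttctatttttCCTTTCtctttacaat

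CEMIP2 and VCAN have the same number of copies in 3′ UTRs of similar length. CEMIP2 was 2.96-fold lower while VCAN changed little (log2 fold change 0.11). Among the 11920 tested genes with an annotated 3′ UTR of at least 50 bases, 45.6% hold at least 1 copy. Their median log2 fold change was 0.09 with 0 copies, -0.03 with 1, -0.11 with 2, -0.16 with 3 and -0.24 with 4 or more. The share called lower was 26.2% with 0 copies and 56.3% with 4 or more. The median 3′ UTR length moved along, from 814 to 5909 bases, and its part was not tested.

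**Figure D4:**
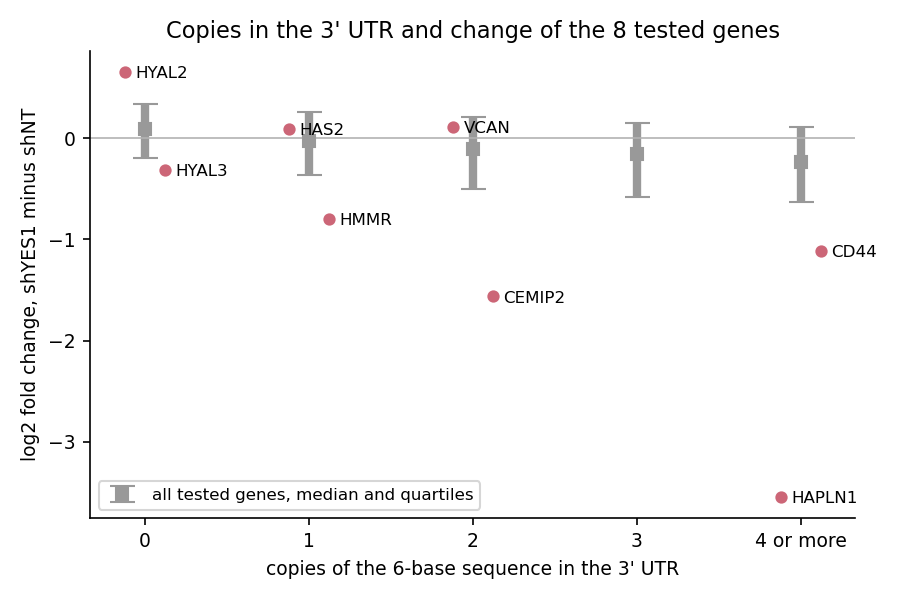
Log2 fold change against the number of CCTTTC copies in the 3′ UTR: grey squares and bars are the median and quartiles of all tested genes, red points are the 8 tested hyaluronan genes. HAPLN1 (4 copies) and CEMIP2 (2 copies) lie far below the quartiles of their bins, and VCAN (2 copies) lies inside them.

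The promoter of HMMR is shown because 9 of the 10 genes have a window in the RefSeq promoter table and that of HMMR alone holds CCAAT, the NF-Y box. The window has 300 bases around the RefSeq start of HMMR in GRCh38.p14, a start that lies inside the GENCODE span given above; capitals mark CCAAT on either strand (ATTGG on the printed strand) and TTTGAA, the core of the cell cycle homology region.
HMMR, chr5:163460382-163460681, plus strand: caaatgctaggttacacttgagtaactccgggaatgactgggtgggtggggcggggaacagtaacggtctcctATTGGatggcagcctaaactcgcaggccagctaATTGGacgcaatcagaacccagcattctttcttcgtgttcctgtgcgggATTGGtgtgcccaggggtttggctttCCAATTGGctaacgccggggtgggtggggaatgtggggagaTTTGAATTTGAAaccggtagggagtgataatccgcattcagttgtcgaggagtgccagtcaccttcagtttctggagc

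HMMR has 5 matches to CCAAT, of which the last pair overlap as CCAATTGG, and 2 adjacent matches to TTTGAA. Of all 34796 distinct promoter windows, 34.6% hold CCAAT, 15.2% hold TTTGAA and 5.93% hold both, and 124 windows (0.356%) hold at least 5 matches to CCAAT. The cut of 5 is the count of HMMR itself, whose window was picked for its CCAAT, so the last share is a description that supports nothing. VCAN also holds TTTGAA. The TEAD core GGAATG, read on both strands, is in the windows of HMMR, HYAL2 and HYAL3 and in 14.04% of all windows. The hypoxia response core ACGTG is in those of CD44, HAPLN3, HAS3 and HYAL3 and in 21.4% of all. The AP-1 site TGANTCA is in none of the 9 genes' windows and in 7.73% of all. HAPLN1 and CEMIP2 hold no match to any of the 5 motifs.

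The wider pathway was described from 8 lists of other genes, 88 in all, of which 59 were tested: 14 rose, 35 fell and 10 were not called. The lists' median log2 fold change was -0.23. These lists too were drawn up with earlier results known, so their counts are descriptions beside the 65.3% of all genes that were called. Most genes named below were picked by their change in this same contrast. Their adjusted p-values are those of the fit over all genes and add no independent support.

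Of the 8 genes that make the precursor sugars, 5 fell, 1 rose and 2 were not called. PGM1, which interconverts glucose phosphates, fell, with 249 ± 4.92 CPM in shNT and 112 ± 2.57 in shYES1 (edgeR adjusted p = 3.02e-33, log2 fold change -1.15, SE 0.0307). The falls of GFPT1, the entry enzyme of hexosamine synthesis, and UGP2, which makes UDP-glucose, were small, at -0.27 and -0.25. UAP1, the last step to UDP-N-acetylglucosamine, rose by 0.31 (SE 0.0412), and UGDH, which makes UDP-glucuronic acid, was level at 45.1 ± 1.497 and 44.8 ± 0.878 CPM.

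Of 8 other synthase and breakdown genes, 5 were tested, 4 fell and 1 was not called. CEMIP, the secreted relative of CEMIP2 that depolymerises hyaluronan, fell, with 13.2 ± 0.908 CPM in shNT and 4.72 ± 0.781 in shYES1 (edgeR adjusted p = 6.40e-16, log2 fold change -1.45, SE 0.111). This is close to the -1.56 of CEMIP2. The lysosomal enzyme genes GUSB (-0.27) and HEXA (-0.27) fell by little. HAS1 had at most 2 reads in a library, HYAL1 at most 6 and SPAM1 0, so HAS2 supplied most of the synthase reads here.

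Of 15 other link proteins, lecticans and secreted binders, 3 were tested, and 4 had 0 reads in all libraries. TNFAIP6, which transfers inter-alpha-inhibitor heavy chains onto hyaluronan, fell, with 62.1 ± 1.501 CPM in shNT and 23.6 ± 1.10 in shYES1 (edgeR adjusted p = 1.97e-27, log2 fold change -1.40, SE 0.0523). PTX3, a pentraxin that crosslinks such chains, fell, with 71.0 ± 3.77 CPM in shNT and 28.4 ± 1.19 in shYES1 (edgeR adjusted p = 4.81e-27, log2 fold change -1.33, SE 0.0509). The heavy chain genes ITIH1 to ITIH5 had at most 7 reads in any library. HAPLN2, HAPLN4, ACAN and NCAN had at most 1, so HAPLN1 and VCAN were the abundant link protein and lectican of these cells.

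Of 8 other receptors and cell-associated binders, 4 were tested, 2 rose and 2 fell. HABP4, an intracellular RNA-binding protein named for hyaluronan binding, rose, with 20.9 ± 0.218 CPM in shNT and 44.5 ± 1.64 in shYES1 (edgeR adjusted p = 1.06e-21, log2 fold change 1.09, SE 0.0576), and C1QBP, mostly a mitochondrial protein, rose by 0.37. TLR2 and TLR4, innate immune receptors reported to respond to hyaluronan fragments, fell by 1.12 and 0.69 on the log2 scale. LYVE1 and STAB2, the receptors of sinusoidal endothelium, had at most 1 read in a library.

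Of the 10 CD44 partners, splicing factors and sheddases, 9 were tested, 6 fell, 2 rose and 1 was not called. MMP14, a membrane protease that sheds CD44, fell, with 521 ± 8.03 CPM in shNT and 300 ± 8.92 in shYES1 (edgeR adjusted p = 1.01e-29, log2 fold change -0.80, SE 0.0262). The linker RDX fell by 0.43 and its relative EZR rose by 0.24, both of which tie CD44 to actin, and the sheddase ADAM10 fell by 0.23 on the log2 scale. NF2, the merlin gene, rose by 0.17 (edgeR adjusted p = 0.00165), a call lost at adjusted p = 0.124 with scaling on the genes that lack CCTTTC. That scaling set the genes lower as a whole, with a median log2 fold change of -0.09. ESRP1, an epithelial splicing factor of CD44 variant exons, had 0 reads in all libraries. ESRP2, counted among the genes that fell, had 12 to 13 reads in shNT and 3 to 6 in shYES1. It passed the filter on low counts through its shNT level.

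Of 11 versican proteases and matrix partners, 5 were tested, 1 rose, 1 fell and 3 were not called. TNC, the tenascin that versican binds, rose, with 1179 ± 44.0 CPM in shNT and 1485 ± 31.7 in shYES1 (edgeR adjusted p = 4.84e-16, log2 fold change 0.33, SE 0.0254). The versicanase gene ADAMTS9 was low, at 1.05 ± 0.279 and 0.606 ± 0.303 CPM with groups that overlap. Its call (edgeR adjusted p = 0.0429) was lost in 8 of 14 alternatives, with adjusted p up to 0.373. ADAMTS9 had 12 to 18 reads in shNT and 6 to 15 in shYES1, and passed the filter on low counts through its shNT level. ADAMTS1, ADAMTS4 and ADAMTS5 had at most 5 reads in a library.

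Of the 21 genes for chondroitin sulfate, the chains versican carries, 18 were tested, 7 rose, 9 fell and 2 were not called. The fall of DSE, the epimerase that turns chondroitin into dermatan sulfate, was the largest of the list, with 172 ± 0.508 CPM in shNT and 44.6 ± 1.30 in shYES1 (edgeR adjusted p = 2.98e-39, log2 fold change -1.94, SE 0.0367); its exons overlap ENSG00000285446 on the same strand. The sulfotransferase gene UST fell by 1.77 from a low level of 2.49 ± 0.333 CPM, and CHPF2, a chain polymerising factor, fell by 1.16 on the log2 scale. UST had 29 to 45 reads in shNT and 6 to 20 in shYES1, and passed the filter on low counts through its shNT level. XYLT2, which starts the chain, rose by 0.95 from 43.7 ± 2.22 CPM, the linker enzyme gene B3GAT3 rose by 0.74 and the sulfotransferase gene CHST7 rose by 1.06.

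Of the 7 spindle partners of HMMR, 6 fell and 1 rose, with a median log2 fold change of -1.11. TPX2, the spindle assembly factor that HMMR binds, fell, with 278 ± 4.83 CPM in shNT and 123 ± 5.23 in shYES1 (edgeR adjusted p = 1.79e-33, log2 fold change -1.18, SE 0.0311). BRCA1 and BARD1, a ubiquitin ligase pair, fell by 1.28 and 1.34, and DYNLL1, a dynein light chain gene, rose by 0.17. HMMR itself, at -0.80, changed less than the median of these partners.

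**Figure D5:**
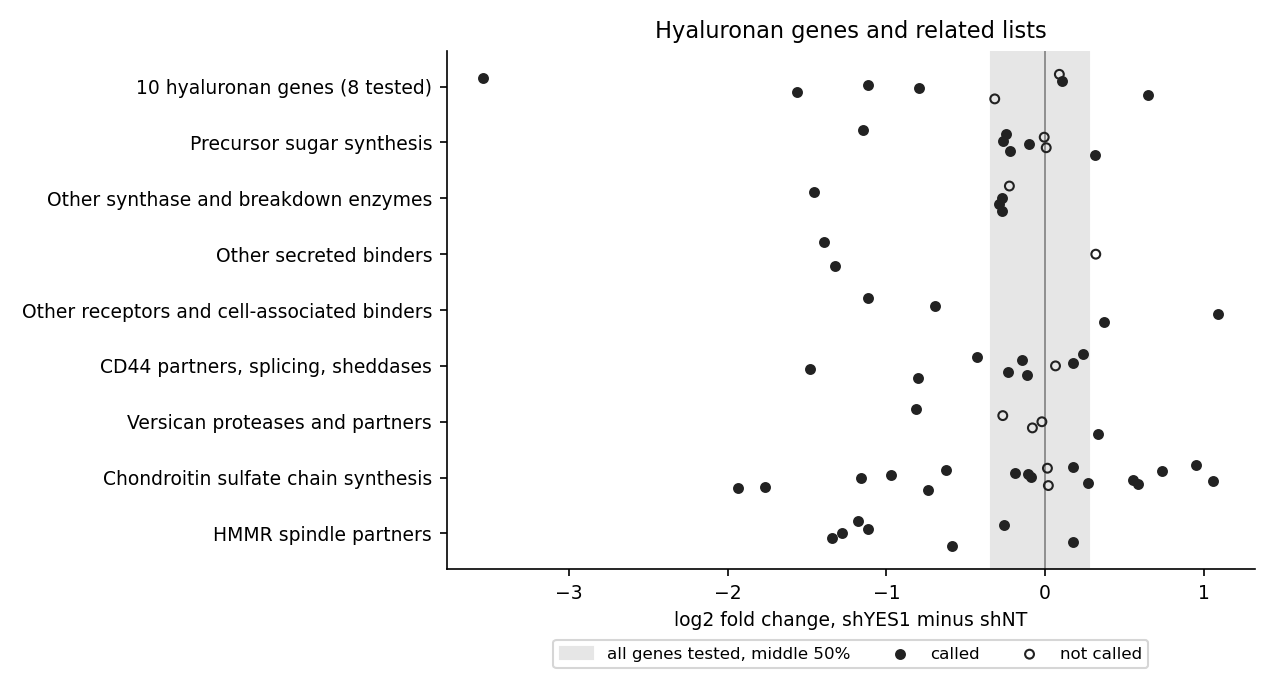
Log2 fold change of each tested gene, shYES1 minus shNT, for the hyaluronan genes (top) and the 8 lists; filled points passed the edgeR test, open points did not, and the grey band holds the middle of all genes tested. HAPLN1 at -3.54 lies to the left of every listed gene, and DSE at -1.94 is the next.

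The genes most alike in profile were sought among 10154 protein-coding genes of at least 5 CPM, by the root mean square difference of log2 CPM over the 6 libraries after centring each gene. The nearest to HAPLN1 were CXCL5, a neutrophil chemokine (distance 0.113, 1506 ± 20.0 to 146 ± 2.70 CPM), CA9, a carbonic anhydrase (0.118, 55.9 ± 6.18 to 5.06 ± 0.557 CPM), and SAA2, an acute phase protein (0.130, 23.9 ± 0.816 to 2.06 ± 0.180 CPM), whose exons overlap a readthrough gene. The nearest to CD44 were NT5DC2 (0.0120), the mitotic kinase CDK1 (0.0154) and the endocytic adaptor SNX9 (0.0165), with log2 fold changes of -1.13, -1.10 and -1.12 beside its own -1.12. The nearest to HAS2 were the lipid kinase DGKE (0.0271), the adaptor DOK3 (0.0278) and HEATR5B (0.0369), which differed between groups by 0.09 to 0.12 on the log2 scale. With 2 groups of 3 libraries, likeness in profile is mostly likeness in fold change.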

How the data were processed

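RNA of 6 SNU-387 samples was sequenced from poly(A) libraries of a KAPA stranded kit, per the labels' protocols. The deposited files give raw read counts for every gene, unstranded and for each strand, which are not normalized; the submitters' processing notes name CASAVA 1.8.2, Trimmomatic 0.35, STAR 2.5.1b and build GRCh38. No source used here gives the annotation release. Reverse-strand counts were used (93.5% to 94.0% of stranded reads); entries that name no gene held 19.8% to 20.3% of reads and were left out. Of 58219 identifiers, 57437 matched a symbol and 57881 are in GENCODE release 29, the source of coordinates, exon lengths and 3′ UTRs.

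Genes passed edgeR's filterByExpr (minimum count 10, minimum total 15). The edgeR 4.0.16 quasi-likelihood fit (R 4.3.3, TMM scaling) over all 14239 genes gave log2 fold changes, with Benjamini-Hochberg adjustment and a threshold of 0.05; the SE is the fold change divided by the root of F and is approximate. Since separate cultures are not stated, the p-values reflect only the variation among the 6 samples, perhaps technical. The members and lists were chosen with earlier results of these data known. Named were all 10 genes and, per list, up to 3 called genes in each direction with a mean of at least 1 CPM; others are given as low or as uncalled values, and 1 listed gene is not reported here. Alternatives used limma 3.58.1 (voom), DESeq2 1.42.0, other scalings, filters and strands, a minimum fold of 1.2, and leaving out each library. The fit was tested on simulated data. Promoters are from RefSeq, GRCh38.p14; HAS2 has no window there.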

Additional observations from a re-analysis of the deposited data

How the results depend on the processing

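Over 15 alternatives, HAPLN1 kept a log2 fold change of -3.63 to -3.44, CEMIP2 -1.65 to -1.47 and CD44 -1.21 to -1.02. HMMR kept -0.89 to -0.70 and HYAL2 0.56 to 0.75, and these genes were past the threshold each time. VCAN ranged from 0.02 to 0.21, HYAL3 from -0.45 to -0.18 and HAS2 from -0.02 to 0.19. All 15 reuse the same libraries, and the genes were chosen with this contrast known. The ranges thus describe the processing and add no support to the differences. With scaling on the genes whose 3′ UTR lacks CCTTTC, 1 of the 10 genes was called higher (2 as reported), as was 1 CD44 partner (2), and 2 versican partners were called lower (1). That scaling set the genes lower as a whole, with a median log2 fold change of -0.09. With library size only, 1 other secreted binder was called higher (0), and 0 versican partners lower; the latter count was also 0 with DESeq2, no low-count filter, the 1 CPM filter, unstranded counts and a minimum of 1.2-fold, and 0 to 1 when a library was left out (0 without shNT replicate 1 or 2 or shYES1 replicate 2 or 3). A minimum of 1.2-fold left 2324 genes higher and 2861 lower. It left 1 of the 10 hyaluronan genes higher, 0 precursor sugar genes higher and 1 lower, 1 other enzyme lower, 0 CD44 partners higher and 3 lower, and 0 HMMR partners higher. Replicate numbers did not pair the samples (correlations of deviations 0.0150, 0.0266 and 0.00835); a replicate block gave 4628 genes higher and 4669 lower, against 4623 and 4676, and the same 6 calls among the 10. Of the 10 genes, 5 were called lower (4 as reported) where HAPLN3 entered the fit. With a library left out, HAPLN3 entered only through its higher shNT counts, so this added call supports nothing. Depth limits HAPLN3 and HAS3, at 2 to 14 reads per library.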
